A study of Caenorhabditis elegans with 6 samples.

Results

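T28B8.1, C04F12.5, ZK1098.11 and C55C3.3 are 4 protein-coding genes of the nematode Caenorhabditis elegans, chosen by their measured 22G read counts, which were far higher in males without the Piwi protein PRG-1. They are 4 of 22013 genes in the deposited transcript table, of which 20222 are protein-coding, and they hold 7 of its 35862 transcripts. All 4 were found by sequence name, and all 4 were among the 2879 protein-coding genes with enough reads to test. No function is given for them in the files; the RefSeq table names C04F12.5 nssp-7 and lists the other 3 by sequence name alone. Whole males grown at 25 °C were collected as adults, 24 h past mid-L4, 20 to 30 to a library, and their small RNA gave 3 libraries of wild type and 3 of a prg-1 null mutant. The allele, and which bases of prg-1 it lacks, are not given in the labels. Because the 4 genes were picked for their difference between these genotypes, that difference is described here without a test.

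PRG-1 is the Argonaute that carries the piRNAs of C. elegans, also called 21U-RNAs. Transcripts recognised by piRNAs serve as templates for RNA-dependent RNA polymerases, which make short antisense RNAs that mostly start with G and carry a 5′ triphosphate, the 22G-RNAs. Worm Argonautes load 22G-RNAs, and depending on the Argonaute the target gene is silenced or kept active. RNA was treated with acid pyrophosphatase before cloning, so that 5′ triphosphate RNAs could enter the libraries. A 22G read here is an antisense read that starts with G and is 21 to 23 nt long, and CPM is the number of such reads per 1000000 22G reads of the tested genes after TMM scaling in edgeR.

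The libraries held 973971 to 2205341 genome-aligned reads and 69111 to 373032 22G reads on protein-coding genes, with the third wild type library the shallowest. The mutated gene itself carried 143, 441 and 88 22G reads in wild type against 7, 15 and 9 in the mutant, so the 2 labelled genotypes stood apart at that gene. Its reads are small RNAs and do not measure prg-1 mRNA. The libraries come from whole animals, so fewer cells of a type and less RNA per cell cannot be told apart in any level below.

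The 4 genes lie on 3 chromosomes, and their coordinates are those of WBcel235, the build of the files. T28B8.1 (WBGene00012113) spans 8133891 to 8135051 on the plus strand of chromosome I. The deposited transcript under which most of its reads are listed, T28B8.1.1, is 1068 bases long. The Ensembl annotation holds 1 transcript of T28B8.1, from 8134115 to 8135051, and its bounds differ from those of T28B8.1.1. The coding sequence of that annotated transcript covers 510 bases, or 170 codons. C04F12.5 (WBGene00007299) spans 9690079 to 9690557 on the minus strand of the same chromosome, with a transcript of 413 bases and 126 codons. ZK1098.11 (WBGene00014226) spans 9556507 to 9557454 on the plus strand of chromosome III, with a transcript of 476 bases and 100 codons. These 3 genes are short, with 2 exons each. C55C3.3 (WBGene00016953) spans 5685287 to 5688273 on the plus strand of chromosome IV and is longer, with 11 exons, a transcript of 1583 bases and 504 codons.

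T28B8.1 carried few 22G reads in wild type and many in prg-1 null. The wild type libraries had 6, 7 and 2 of its reads, and the mutant libraries had 1419, 2494 and 3483. Scaled, these were 55.9, 29.9 and 27.99 CPM for wild type against 8834, 9389 and 11619 CPM for the mutant. The lowest prg-1 null library was far above the highest wild type library, and the genotypes did not overlap. The means were 37.9 ± 15.6 and 9947 ± 1474 CPM (SD, n = 3 each), a 262-fold difference, and the fitted log2 fold change was 8.04 ± 0.41 (SE, edgeR). The gene ranked 2481 of 2879 by wild type level and 8 by prg-1 null level. It was picked for its difference and passed the read filter through its prg-1 null reads, so these ranks follow from the choice.

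C04F12.5 was almost without 22G reads in wild type. It had 2, 1 and 1 reads in wild type against 728, 1033 and 1460 in the mutant. In CPM these were 18.6, 4.27 and 13.997 against 4532, 3889 and 4870. All prg-1 null libraries were high and lay close together, with a coefficient of variation of 11.3%. The means of 12.3 ± 7.34 and 4430 ± 499 CPM (SD, n = 3 each) differed 360-fold. The fitted log2 fold change was 8.70 ± 0.51 (SE, edgeR), and the few wild type reads set how well it was known. After summing the reads of each genotype and correcting for depth, the ratio was 458 with a 95% counting interval of 179 to 1682. Without the second wild type library the log2 fold change was 8.004, with 22-nt reads alone it was 9.75, and with antisense reads of any kind it was 7.46.

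ZK1098.11 showed the largest ratio of means. It had 2, 2 and 0 reads in wild type against 598, 1175 and 1384 in the mutant, or 18.6, 8.53 and 0 CPM against 3723, 4423 and 4617 CPM. The third wild type library, which had no read, was also the shallowest. The means of 9.06 ± 9.33 and 4254 ± 470 CPM (SD, n = 3 each) differed 470-fold, with a fitted log2 fold change of 8.68 ± 0.52 (SE, edgeR). The ratio of summed reads was 449 with a 95% counting interval of 175 to 1649. That interval covers nearly the same range as that of C04F12.5, so these data do not order the 2 genes by the size of their difference.

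C55C3.3 had the smallest ratio of the 4 and the widest spread among prg-1 null libraries. It had 7, 11 and 4 reads in wild type against 849, 1620 and 2884 in the mutant. In CPM these were 65.2, 46.9 and 56.0 against 5286, 6098 and 9621. The genotypes did not overlap, but the third prg-1 null library stood well above the other two, and the coefficient of variation of 32.9% compares with a median of 16.7% over the 202 tested genes with at least 1000 CPM in prg-1 null. The means were 56.1 ± 9.15 and 7002 ± 2304 CPM (SD, n = 3 each), 125-fold apart. The fitted log2 fold change was 6.99 ± 0.42 (SE, edgeR), and 5.93 with antisense reads of any kind.

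**Figure D1:**
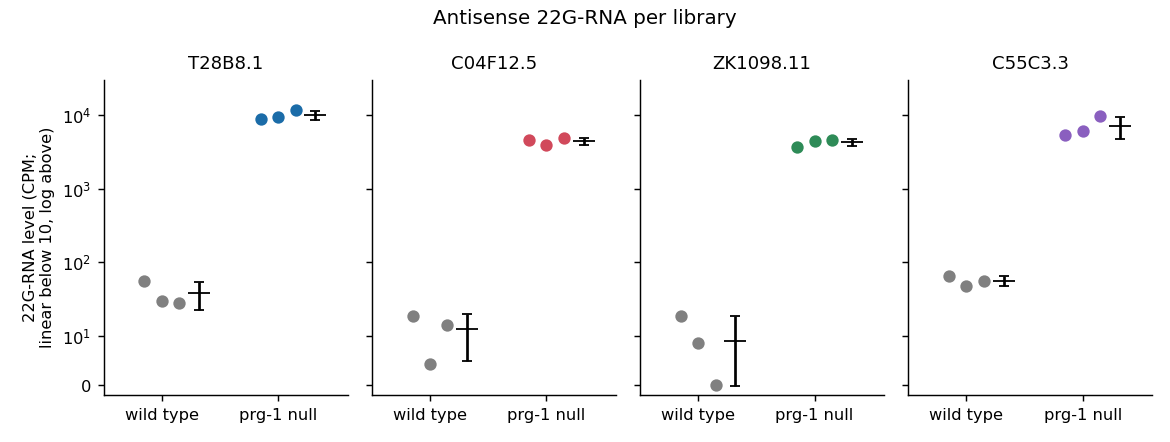
Level of 22G-RNA (CPM, linear below 10 and on a log scale above) of each gene in the 3 wild type and 3 prg-1 null libraries, with points for libraries and a bar for the mean ± SD. The highest wild type point is 65.2 CPM (C55C3.3) and the lowest prg-1 null point is 3723 CPM (ZK1098.11).

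For each of the 4 genes, every prg-1 null library lay above every wild type library. The same held for 596 of 2879 tested genes (20.7%), and nothing is read from the count of members since they were picked for this. In the edgeR fit over all tested genes, 357 (12.4%) were called higher and 938 (32.6%) lower in prg-1 null at an adjusted p under 0.05. When the scaling was by genome-aligned reads other than sense rbd-1 and antisense daf-15, these counts were 578 and 850, and the median gene moved up by 0.56 on the log2 scale. The median log2 fold change was -0.11 over all tested genes and 2.78 over the genes called higher. By fitted fold change among those 357 genes, C04F12.5 ranked 7, ZK1098.11 ranked 8, T28B8.1 ranked 15 and C55C3.3 ranked 37. Although they were grouped as genes with the largest gains, other genes thus had larger fitted gains. Together they held 0.0151%, 0.00692% and 0.0101% of all 22G reads on protein-coding genes in wild type, against 2.07%, 2.19% and 2.47% in the mutant.

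**Figure D2:**
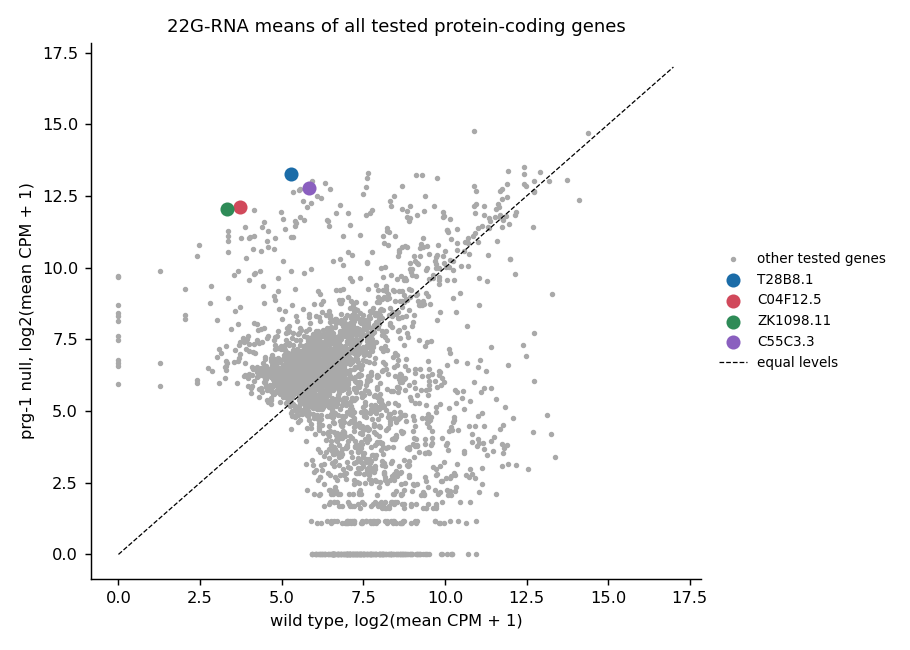
Mean 22G-RNA level of each tested gene in prg-1 null against wild type, both as log2(mean CPM + 1) over 3 libraries, with the 4 genes in colour and a dashed line of equal levels. The 4 genes sit at the upper left, among the low genes of wild type and the high genes of prg-1 null, a place that follows from how they were picked.

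Levels of different genes can be compared only per length, and on that scale their order changed. In prg-1 null, C04F12.5 had 10974, 9416 and 11793 CPM per 1000 bases of transcript. T28B8.1 had 8272, 8791 and 10879, and ZK1098.11 had 7821, 9293 and 9699. C55C3.3 had 3339, 3852 and 6078. The means were 10728 ± 1208, 9314 ± 1380, 8938 ± 988 and 4423 ± 1456 CPM per 1000 bases (SD, n = 3), in that order. Libraries of C04F12.5, T28B8.1 and ZK1098.11 overlapped, so these neighbours in the order did not differ beyond their spread. All 3 libraries of C55C3.3 lay below all libraries of the other 3 genes. The median of all tested genes was 36.7 CPM per 1000 bases, and the 4 genes ranked 14, 20, 22 and 59 of 2879. Since they were picked for their rise in prg-1 null, these ranks are description only. In wild type the levels were 29.8 ± 17.8, 35.5 ± 14.6, 19.03 ± 19.6 and 35.4 ± 5.78 CPM per 1000 bases in the same order, and all overlapped.

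The genes were picked by counts of 22G reads, a class set by length and first base. Their shares of 22G reads are therefore not independent of that choice and are given as description. In prg-1 null, 22G reads made up 73.6 ± 1.98% of all antisense reads of T28B8.1, 84.9 ± 1.91% of C04F12.5, 92.2 ± 1.51% of ZK1098.11 and 82.5 ± 2.86% of C55C3.3 (SD, n = 3). Over 314 other genes with at least 300 such reads in prg-1 null, the median share was 75.5%, with quartiles of 68.8% and 81.0%. T28B8.1 lay inside that range, and C04F12.5 and ZK1098.11 lay above it in every library. C55C3.3 had 80.1%, 81.8% and 85.7%, so its first library lay inside the range and the other two above it. Of the 314 genes, 179 had a higher share than T28B8.1, 52 a higher share than C55C3.3, 40 a higher share than C04F12.5 and 16 a higher share than ZK1098.11.

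ZK1098.11 differed from most genes in the length of its reads. Most 22G-RNAs are 22 nt long, but on ZK1098.11 the 21-nt form was the most abundant. The first prg-1 null library held 385 reads of 21 nt, 184 of 22 nt and 29 of 23 nt. The second held 818, 316 and 41 and the third 1066, 274 and 44. In all 3 libraries the 21-nt form led, with shares of 64.4% (95% exact binomial interval 60.4 to 68.2), 69.6% (66.9 to 72.2) and 77.0% (74.7 to 79.2). The intervals of the first and the third library did not touch, so the libraries differed by more than counting error, but every library of ZK1098.11 exceeded every library of the other 3 genes.

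C04F12.5 had 21-nt shares of 30.1%, 33.6% and 36.6%, T28B8.1 had 22.5%, 22.98% and 23.6%, and C55C3.3 had 15.1%, 21.5% and 23.1%. The median of the 314 other genes was 20.0%, with quartiles of 13.1% and 28.9%. T28B8.1 and C55C3.3 were thus within the middle range of other genes, and C04F12.5 was somewhat above it. With libraries pooled, ZK1098.11 stood at 71.9% (70.3 to 73.4) and 3 of the 314 genes exceeded it. These were F13B12.3 at 97.5%, rme-8, an endocytosis gene with a DnaJ domain, at 97.0%, and the adenylyl cyclase gene acy-2 at 92.0%. They were found after their values were seen. The median was 20.8% over the 187 of these genes called higher in prg-1 null and 18.1% over the remaining 127. In wild type ZK1098.11 had 4 such reads in all, too few for a share.

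**Figure D3:**
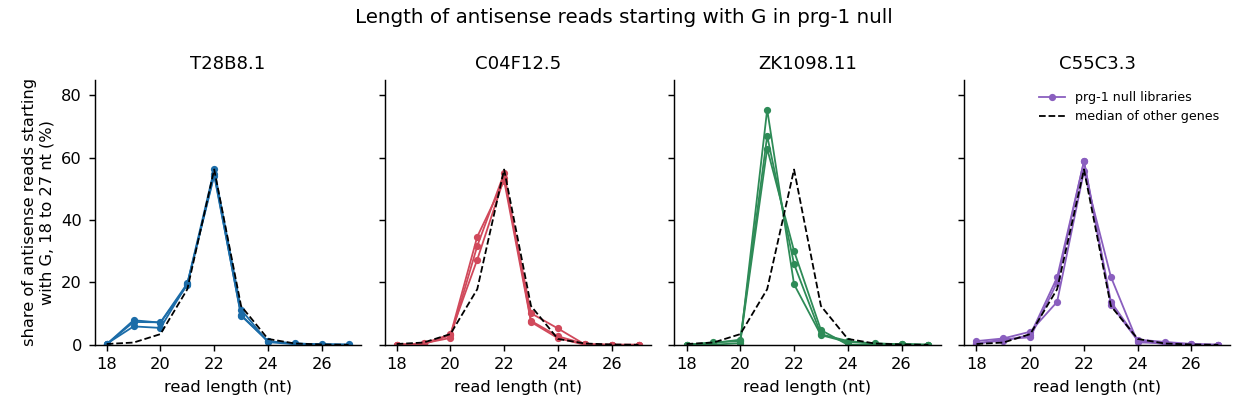
Share (%) of each read length among antisense reads that start with G and are 18 to 27 nt long, by length (nt), for each gene in the 3 prg-1 null libraries, with a dashed line for the median of 314 other genes. T28B8.1, C04F12.5 and C55C3.3 peak at 22 nt as other genes do, ZK1098.11 peaks at 21 nt, and T28B8.1 has a shoulder at 19 nt.

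**Figure D4:**
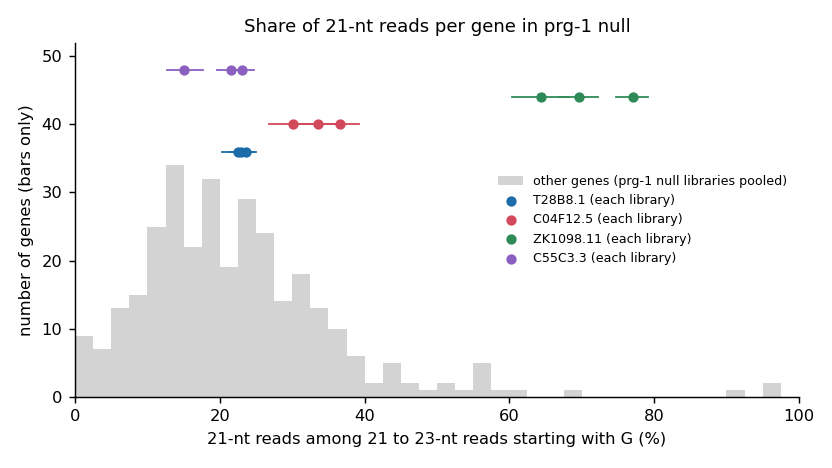
Share (%) of 21-nt reads among 22G reads in prg-1 null, with points and 95% exact binomial intervals for each library of the 4 genes (their height has no scale) and grey bars for the number of other genes. ZK1098.11 lies at 64.4% to 77.0%, beyond nearly all grey bars.

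T28B8.1 stood out by shorter reads instead. Antisense 19-nt reads that start with G were at 0 in every wild type library and at 97, 237 and 305 in the mutant. They made up 5.12%, 6.78% and 6.54% of its antisense reads there, 6.14 ± 0.90% on average (SD, n = 3). All 3 libraries were high, and with libraries pooled the share was 6.35% (95% exact binomial interval 5.88 to 6.85). The median of the 314 other genes was 0.6%, and 2 of them had a higher share than T28B8.1. A 19-nt class was not set in advance, so this rank is description only. The pooled share was 1.42% for C55C3.3, 0.378% for ZK1098.11 and 0.291% for C04F12.5, all far below that of T28B8.1. Among its antisense reads that start with G and are 18 to 27 nt long, those of 19 nt and 20 nt made up 7.24% and 6.84% on T28B8.1, beside 19.5% at 21 nt and 54.8% at 22 nt. In wild type T28B8.1 had 25 antisense reads of any kind. The absence of 19-nt reads there thus says nothing of a difference between the genotypes.

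Reads of 21 to 23 nt that started with A were the most frequent class after G on 3 of the genes. They made up 7.62% of antisense reads on T28B8.1, 5.08% on C04F12.5 and 4.64% on C55C3.3 with prg-1 null libraries pooled, against a median of 9.94% over the 314 other genes. ZK1098.11 was the exception, with 0, 16 and 18 such reads in the mutant libraries, or 0.989% (95% exact binomial interval 0.686 to 1.38). Of the 314 genes, 302 had a higher share. On ZK1098.11 reads starting with C were more frequent than those starting with A, with 20, 33 and 66 reads or 3.46%, while the median of other genes for C was 2.26%.

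The 26G-RNAs are another class of worm small RNA, 26 nt long and starting with G, made with the enzyme Dicer in the germ line and known in sperm development and in embryos. C55C3.3 had 2, 13 and 0 of them in wild type against 0, 5 and 4 in the mutant. The genotypes overlapped, and most of the wild type reads came from 1 library. Of 74 antisense reads of C55C3.3 in wild type, 15 were 26G reads, or 20.3% (95% exact binomial interval 11.8 to 31.2). In prg-1 null they were 9 of 6406, or 0.140% (0.0643 to 0.267). The 2 counts were of similar size, and the share differed with the number of other antisense reads. T28B8.1 had 0 in every wild type library and 4, 1 and 2 in prg-1 null, which is 0.0696% of its antisense reads there. That is an ordinary share, since the median of the 314 other genes was 0.0769% and 165 of them had a higher one. With 25 antisense reads of any kind in wild type, its counts say nothing of a difference in 26G-RNA. ZK1098.11 had 2, 0 and 2 in prg-1 null and 0 in wild type, and C04F12.5 had none in any library.

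Sense reads, which come from the strand of the mRNA itself, were few on all 4 genes. T28B8.1 had 5, 0 and 2 in wild type against 1, 0 and 1 in the mutant. C04F12.5 had 1, 2 and 3 against 1, 1 and 4, and all but 1 of these were 50 nt long and started with C. ZK1098.11 had 0 in wild type against 8, 0 and 1 in the mutant. C55C3.3 had 5, 3 and 4 against 11, 2 and 5. In none of the 4 genes did the genotypes separate, while 494 of 10106 genes (4.89%) with at least 3 sense reads had every prg-1 null library above every wild type library. Short sense reads do not measure the mRNA, so no level of the messages is given here. Antisense reads of other kinds were present in wild type too. C04F12.5 had 13 antisense reads over the wild type libraries, of which 6 were 55 nt long, the longest length listed, and 4 were 22G reads.

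The files do not place reads within a transcript, but they do list them by isoform. Nearly all antisense reads of T28B8.1 were listed on T28B8.1.1, with 1896, 3497 and 4666 in prg-1 null, and T28B8.1.2 had 26, 30 and 49. On C04F12.5 the second isoform had 0, 0 and 3, and on ZK1098.11 the second isoform had none in any library. Over 4164 genes with several isoforms and at least 10 antisense reads, 94.6% of the reads were on the isoform listed first. The skew to the first isoform was thus also that of the whole table, and which isoform the reads pair with cannot be told.

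ZK1098.11 shares its place in the genome with another gene. In the Ensembl annotation, where it starts at 9556600, 851 bases of its span lie within unc-16, the gene for a scaffold protein of the JNK pathway and of axonal transport, on the same strand (chromosome III, 9546258 to 9557450). The deposited transcripts of unc-16 end at 9556514 and overlap ZK1098.11 by 8 bases. In the deposited table, reads from exons of ZK1098.11 in the stretch that the annotations assign differently can therefore only be listed under ZK1098.11. That stretch also holds intron, since the transcript of ZK1098.11 has 476 bases in 2 exons. unc-16 itself had 3, 14 and 0 22G reads in wild type against 1, 15 and 13 in the mutant, so its remaining sequence carried few reads and the genotypes overlapped. Which transcript the antisense reads of ZK1098.11 pair with cannot be told apart. On the opposite strand ZK1098.11 overlaps C48B4.6 by 7 bases, and that gene had 2 22G reads in the third prg-1 null library and 0 in the others. C04F12.5 overlaps the ribosomal protein gene rpl-14 on the opposite strand by 3 bases. rpl-14 had 5, 5 and 4 reads against 9, 15 and 11. T28B8.1 and C55C3.3 overlapped no other annotated gene.

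The genes around the 4 carried few 22G reads beside the 4 themselves. Of the 24 nearest protein-coding genes, 3 on each side of each gene, 23 were in the table and 5 had enough reads to test. The most reads of any neighbour in 1 library was 48, on C04F12.7, 2 genes away from C04F12.5. Of the 5 tested neighbours 0 were called higher and 1 was called lower in edgeR, as in DESeq2, and at an unadjusted p under 0.05 the counts were again 0 and 1. Over all tested genes 12.4% were higher and 32.6% lower. C04F12.7 stood at 43.7 ± 47.3 CPM in wild type against 143 ± 40.6 in the mutant (SD, n = 3; edgeR adjusted p = 0.107). It was called higher with genome-aligned scaling, with 22-nt reads alone and without the second wild type library, and with all antisense reads ZK1098.12 was called higher.

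The neighbour that was lower was C55C3.8, next to C55C3.3. C55C3.8 had 13, 21 and 5 22G reads in wild type and 0 in every mutant library, so the 2 adjacent genes differed in opposite directions. Its wild type level was 93.6 ± 25.8 CPM (SD, n = 3), at least 22.6-fold above the 4.13 CPM that 3 counts over the prg-1 null group would give (edgeR adjusted p = 6.9e-05). With a minimum of 10 counts in 3 libraries, or with 22-nt reads alone, it had too few reads to be tested. Among the other neighbours, spr-4, a zinc-finger gene near T28B8.1, had levels of 72.1 ± 31.3 and 74.99 ± 10.6 CPM in wild type and mutant, which did not differ past the threshold (edgeR adjusted p = 0.956).

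**Figure D5:**
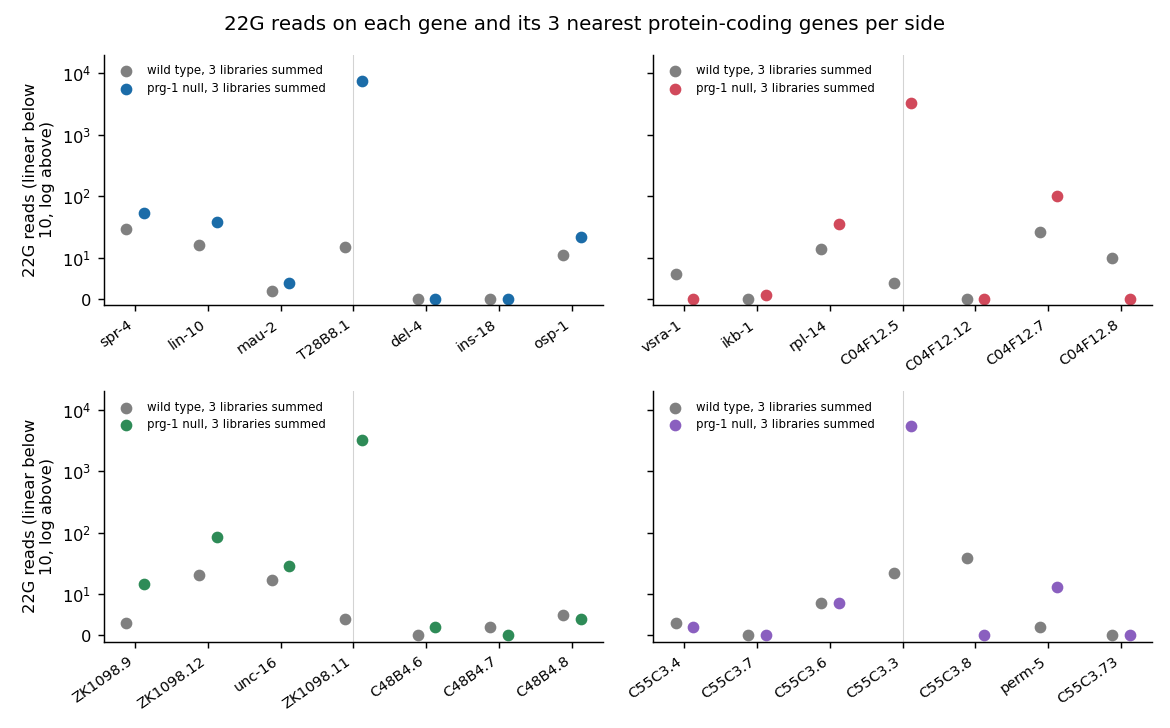
22G reads summed over 3 libraries (linear below 10, log scale above) on each gene and its 3 nearest protein-coding genes per side, in map order, for wild type (grey) and prg-1 null (colour). In each panel the high prg-1 null point is that of the gene in the middle, and the neighbours lie far lower.

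The second deposited table counts reads in genome bins of 1000000 bases, and it shows how much of a region each gene made up. Of all 22G reads on the strand opposite to T28B8.1 in its bin (chromosome I, 8000001 to 9000000), reads of that gene equalled 0.435%, 0.207% and 0.184% in wild type against 50.8%, 49.4% and 51.1% in the mutant. A single short gene thus supplied about as many reads as all other sequence of that strand. Without T28B8.1 the bin held 1325, 2141 and 1729 reads in wild type, per 1000000 genome-aligned reads other than those of rbd-1 and daf-15, against 1621, 1835 and 1853 in the mutant, and the genotypes overlapped. C04F12.5 equalled 35.4%, 34.9% and 40.3% of its bin in prg-1 null, C55C3.3 34.3%, 38.1% and 54.6%, and ZK1098.11 19.7%, 25.7% and 21.3%. In wild type each of the 3 stayed under 1% in every library. On the same scale and without its gene, the bin of C04F12.5 held 981 to 1869 against 1200 to 1565 reads and that of C55C3.3 held 941 to 1803 against 1332 to 1911, both with overlap. The bin of ZK1098.11 held 1197 to 2163 in wild type and 2438 to 2861 in the mutant libraries, with no overlap. Whether the rest of a bin separated the genotypes depended on the scaling. Per 1000000 22G reads on protein-coding genes, a scale added after the values were seen, the rest of the T28B8.1 bin was lower in the mutant without overlap, at 11092 to 15685 against 7928 to 8938. The rest of the C04F12.5 bin was lower too, at 9045 to 9825 against 5788 to 7657. On that scale the bins of ZK1098.11, at 11035 to 13037 against 11777 to 13996, and of C55C3.3, at 8672 to 9535 against 6426 to 9350, both overlapped. No direction is therefore given for the sequence around the 4 genes.

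Genes with a similar pattern over the 6 libraries were sought by Pearson's r of log2(CPM + 1) among 198 other genes with at least 1000 CPM in prg-1 null. The closest to T28B8.1 were ZK177.9 and H14A12.5 (r = 0.999 each), at 2116 ± 246 and 3302 ± 486 CPM in prg-1 null (SD, n = 3). The closest to C04F12.5 were R03D7.2 and the annexin gene nex-2 (both r = 0.999), at 8970 ± 718 and 7235 ± 1248 CPM. ZK1098.11 was most like T09A5.15 (r = 0.999) and Y20F4.4 (r = 0.996), and C55C3.3 was most like Y54G2A.19 (r = 0.9998) and crtc-1 (r = 0.999), the latter a gene for a coactivator of CREB. Among the 4 genes r ran from 0.953 to 0.998. These values mostly restate the split by genotype, since 105 to 115 of the 198 genes had r above 0.9 with each of the 4. The 6 libraries share their genotypes and depths, and no p is given.

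Finally, a broad machinery list of genes linked to 22G-RNAs or to RNA interference was looked up as siRNA targets in the same fit. Of 35 such genes, 34 were matched to the table by name, cde-1 was not matched, and 20 were tested. In edgeR 0 of the 20 were higher and 5 were lower in prg-1 null, and in DESeq2 the counts were the same. At an unadjusted p under 0.05 they were 1 and 6. Set beside 12.4% higher and 32.6% lower over all tested genes, neither count was above the background, and the median log2 fold change was -0.30 against -0.11. rde-11, needed for RNA interference by foreign double-stranded RNA, fell from 664 ± 151 to 10.7 ± 10.4 CPM (SD, n = 3; edgeR adjusted p = 7.5e-08). nrde-1, of the nuclear RNA interference pathway, fell from 387 ± 143 to 26.1 ± 16.3 CPM (edgeR adjusted p = 7.0e-06). The Vasa-like helicase gene glh-1 fell from 1127 ± 515 to 142 ± 48.4 CPM, and rde-4, for a double-stranded RNA binding protein, fell from 312 ± 150 to 26.998 ± 18.4 CPM. The nuclear Argonaute gene hrde-1 fell from 926 ± 429 to 350 ± 90.3 CPM (edgeR adjusted p = 0.0097). hrde-1 was no longer called when either the first or the second wild type library was left out, under genome-aligned scaling, with a replicate block, or on all antisense reads. wago-1, an Argonaute gene that did not pass, was called higher with genome-aligned scaling and with all antisense reads. These are small RNAs against these genes, not the levels of their mRNAs.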

How the data were processed

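Small RNA libraries of whole adult males were compared, 3 of wild type and 3 of prg-1 null. Per the submitters' processing notes, FastQC 0.12.0 and cutadapt 3.7 were used with build WBcel235; the aligner and how it placed reads with several matches are not stated by the sources used here. As the files show, the values that the authors deposited, here called expected counts, are whole-number counts of reads per transcript and per genome bin. Each is split by strand. The name was chosen here because the rule for reads with several matches is not stated. The sources used here do not say that reads were divided between matches by an estimate. Beside each count the authors deposited a list of its reads by length and first base (a text column, unit other), and the 22G reads were summed from it. Near-identical genes may share reads under the unstated rule.

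The isoform with the most reads stood for its gene in the fit, and for the chosen genes also in the shares of read classes. Read-length shares, class shares of the other genes and reads of neighbouring genes were summed over isoforms. After filterByExpr and TMM scaling, all protein-coding genes were fitted in edgeR 4.0.16 under R 4.3.3 with genotype alone, and its quasi-likelihood test was used at a Benjamini-Hochberg threshold of 0.05; the script was tested on simulated data. Alternatives were DESeq2 1.42.0, library size and genome-aligned scaling, other filters and read classes, summed isoforms, pseudogenes kept, a replicate block and leaving out each library. Intervals are exact binomial or Poisson-based with 95% confidence and, as reads carry no molecular identifiers, cover counting error only. No label says that libraries came from separate cultures, so p-values measure the spread between these samples, which may be technical. Neighbours and overlaps came from the Ensembl annotation of WBcel235, and symbols from RefSeq. Other steps used pandas 2.3.3, matplotlib 3.10.9 and scipy 1.17.1 in Python 3.11.15.

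The 4 genes, the machinery list and all rules were chosen with earlier results of these data known. The text names the 4 genes, prg-1, for each gene the 2 most similar genes, neighbours and overlapping genes with 22G reads, and machinery genes that passed. Replicate numbers are shared by the genotypes in the labels, but no shared deviation of same-numbered libraries was seen, so the fit has no block. Protein similarity was not analysed here and no sequences were used.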

Additional observations from a re-analysis of the deposited data

How the results depend on the processing

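The direction of the 4 genes was fixed by how they were picked, so the 16 alternatives bear only on the size of their differences. Leaving out each library in turn, the log2 fold change ran from 7.81 to 8.39 for T28B8.1, 8.004 to 9.24 for C04F12.5, 8.41 to 9.26 for ZK1098.11 and 6.60 to 7.17 for C55C3.3, with 288 to 401 genes called higher and 785 to 1204 called lower. Under the other alternatives the ranges were 7.82 to 8.58, 7.46 to 9.75, 8.43 to 9.19 and 5.93 to 7.52. The count of genes called lower ran from 671 to 1200 and that of genes called higher from 306 to 446, except that scaling by genome-aligned reads other than those of rbd-1 and daf-15 gave 578 higher. That scaling moved the median gene up by 0.56 (log2), and the cause of the difference was not tested.

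Deviations of same-numbered libraries correlated at -0.0389 to 0.0498, so no shared deviation was seen. Pairing is not excluded by this, because counting noise in genes with few reads would also bring such correlations down. With a replicate block 306 genes were higher and 890 lower, and the log2 fold changes were 8.004 for T28B8.1, 8.62 for C04F12.5, 8.68 for ZK1098.11 and 6.89 for C55C3.3. The share of antisense reads counted as 22G depended on the lengths taken: with 22-nt reads alone it was 48.1% for T28B8.1, 48.9% for C04F12.5, 23.8% for ZK1098.11 and 51.6% for C55C3.3, and with 20 to 24 nt it was 80.2%, 90.6%, 93.9% and 86.5%. Depth limits the wild type side most: with 4 to 22 reads over 3 libraries, neither the fold changes nor any read-length share in wild type is known closely.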
